A study of Mus musculus with 12 samples.

Results

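Inflammasome and pyroptosis genes were followed through 2 lists of N6-methyladenosine (m6A) peaks, 1 from wild-type (WT) and 1 from Mettl3 knockout (KO) BV2 cells, all treated with lipopolysaccharide (LPS). The 10 genes were Nlrp1b, Nlrp3, Nlrc4, Aim2, Pycard, Casp1, Casp4, Gsdmd, P2rx7 and Nek7, and every peak that the lists assign to one of them by symbol was taken. They were chosen by earlier values of these same lists, the log2 of the strongest peak per gene, in which the group lay low in KO, so those values are descriptions without a test. Of the 10 genes, 9 had peaks, 28 of the 36682 WT peaks and 29 of the 41153 KO peaks, which together lie on 14078 genes. Pycard had no peak in either list.

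BV2 is an immortalised mouse microglial line, and microglia are the resident macrophages of the brain. The labels give 12 libraries in 4 groups of 3 replicates: WT with LPS and Mettl3 KO with LPS, each as an m6A antibody pull-down (IP) and as the input RNA before pull-down. No group without LPS is among them, and the sources used here give neither the dose and time of LPS, nor how the knockout was made, nor whether it is 1 clone. Mettl3 encodes the methyltransferase that places most m6A on messenger RNA, and the series text asks through which transcripts it shapes the microglial response. Every level below is a log2 enrichment of IP over input, as deposited by the authors, and the adjusted p-values are also the authors'; a list holds a single value per peak, so no spread between replicates exists and no difference between genotypes could be tested. In bulk RNA, fewer cells with a marked transcript and a smaller marked share in each cell cannot be told apart.

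Of 12 markers of microglia and macrophages, 10 had a peak in both lists, while P2ry12 and Sall1, which mark microglia in the brain, had none. Because the extraction protocol speaks of neuroblastoma cells, neuronal and neuroblastoma markers were looked up as well; Tubb3 had peaks, and Hand2, Th, Dbh, Mycn, Chga, Stmn2, Snap25 and Syt1 had none. The 4 astrocyte markers had no peak, and Mbp was the 1 of 4 oligodendrocyte markers with one. Mettl3 RNA carried 3 WT peaks and 6 KO peaks, which does not check the knockout, since a peak measures enrichment and not the amount of RNA. Over all 12323 genes with a peak in both lists the median difference between the strongest peaks, KO minus WT, was -0.25, and the differences below stand against that shift.

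Inflammasomes are protein platforms that a cell assembles when a sensor detects microbial or damage signals. NLRP1B responds to proteases such as anthrax lethal factor, NLRC4 to bacterial flagellin and secretion systems, AIM2 to DNA in the cytosol and NLRP3 to loss of potassium from the cell. The adaptor ASC, made by Pycard, joins sensors to caspase-1, which matures interleukin-1 beta and interleukin-18 and cuts gasdermin D into a pore that kills the cell by pyroptosis. Mouse Casp4 encodes the caspase that binds LPS in the cytosol and cuts gasdermin D directly, P2rx7 an ATP-gated channel that lets potassium out, and Nek7 a kinase needed for NLRP3 assembly. In microglia and other macrophages, LPS primes this system by raising the RNA of several of its parts.

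Sequence was at hand for the transcript starts of these genes, 13 starts of 9 genes in RefSeq (GRCm38.p6). A peak of the same gene covered part of the first 50 transcribed bases at 3 of them, and these are shown because the edge of the peak differed between the lists at each. The lists name no genome build; of 13040 genes matched to RefSeq by symbol and chromosome, 13039 overlapped their position there. Capitals mark a match to the consensus of m6A sites, NNACN where each base before AC is a purine and the base after it is not G, searched on the transcribed strand only and allowed to overlap.
Nlrp3, chr11:59542706-59542735, plus strand, bases 21 to 50 of the transcript that starts at 59542686: catgggttctggtcAGACAcgagtcctggt
Casp1, chr9:5298517-5298546, plus strand, bases 1 to 30: cttccaagtgttgaagaagaatcatttccg
Nlrp1b, chr11:71201427-71201456, minus strand, bases 1 to 30 of an internal start: gtctcctctatgagttctgattaaataccc
At Nlrp3 the KO peak covered 36 of the first 50 bases, with the AGACA match starting at base 35, and the WT peak began further into the gene. At Casp1 the WT peak covered all 50 and the KO peak none. At the internal Nlrp1b start both peaks reached in, over 18 bases in WT and 50 in KO. Such a match lay in the first 50 bases of 8 of the 13 starts of these genes and of 44.6% of all 32851 starts in the table. A match is a description of the letters and no measured m6A site.

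**Figure D1:**
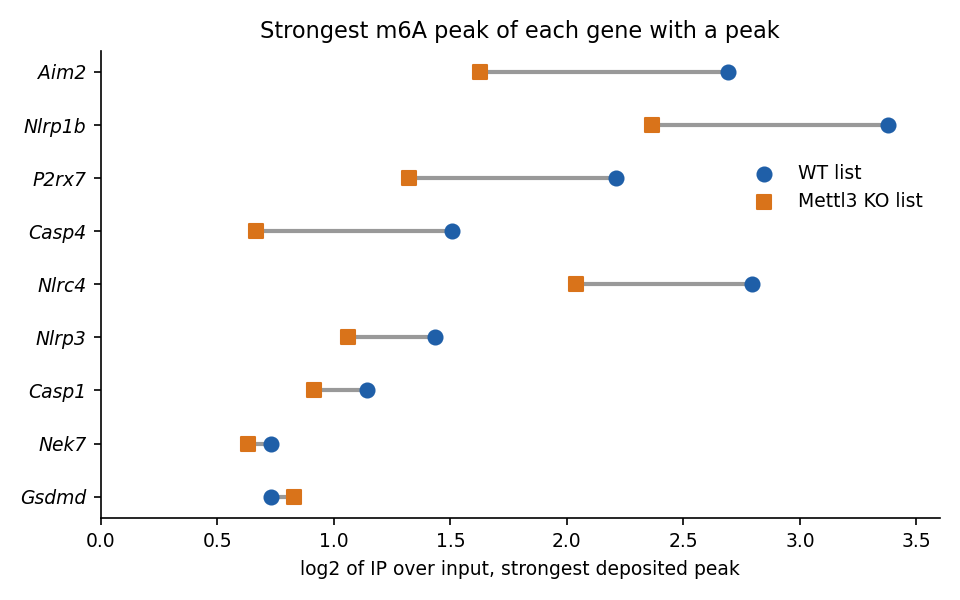
Strongest deposited m6A peak of each of the 9 genes with a peak, as log2 of IP over input on the horizontal axis, for the WT list (circles) and the Mettl3 KO list (squares); each symbol is 1 deposited value with no replicate error. The KO value is lower for 8 genes, by 1.06 for Aim2 at the top, and higher for Gsdmd at the bottom, whose order is the opposite for the mean over its peaks; Casp1 and Nek7 turned once differences were centred on all genes.

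Nlrp1b had the strongest peak of the group. The gene (chromosome 11, 71153102 to 71230733, minus strand) had 3 WT peaks and 5 KO peaks. In the 3' untranslated region (UTR), a WT peak of 175 bases (chr11:71153177-71153351) stood at 3.38, or 10.4-fold, and the KO peak over it, 375 bases wide (chr11:71153102-71153476), stood at 1.95. The next pair did not share this gap: a peak of 15925 bases annotated as 5' UTR (chr11:71201439-71217363) had a WT value of 2.39 and a KO value of 2.37, with 99.4% of the wider peak shared. Nearer the gene start, a coding-exon peak of 10144 bases (chr11:71218289-71228432) stood at 1.60 in WT and 1.17 in KO. The KO list added a coding-exon peak of 18608 bases (chr11:71182656-71201263) at 2.16 and one of 300 bases (chr11:71217439-71217738) at 0.96, neither of which met a WT peak. So the strongest KO peak of Nlrp1b was the 5' UTR one, and the deficit lay in the other 2 pairs. The adjusted p of the 10.4-fold peak was 1.81e-07, larger than those of weaker peaks such as the main one of Nlrc4 (1.02e-247).

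Nlrc4 (chromosome 17, 74425438 to 74459142, minus strand) had 4 peaks in each list. A single WT peak annotated as 3' UTR ran over 20267 bases (chr17:74425938-74446204) at 2.79. In the KO list 3 separate peaks lay inside that span: one of 11365 bases (chr17:74426138-74437502) at 2.04, one of 775 bases (chr17:74445180-74445954) at 0.73 and one of 175 bases (chr17:74445980-74446154) at 0.51. Together they covered 60.8% of the WT span, and the stretch between the first and the second had no KO peak. The WT value is a single value for the whole span, so the short pieces cannot be set against it directly. A coding-exon pair (WT chr17:74446905-74447987, KO chr17:74446780-74447054) shared only 150 bases, at 0.70 and 0.57. Of the WT peaks of Nlrc4, 2 had no KO partner, both annotated as 3' UTR. One, 100 bases wide and 100 bases from the gene end (chr17:74425538-74425637), stood at 1.24, and the other, of 125 bases (chr17:74446230-74446354), at 0.59.

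Aim2 showed the largest drop between strongest peaks. The gene spans 115162 bases on chromosome 1, from 173350879 to 173466040 on the plus strand. Its last peak, annotated as 3' UTR, stood at 2.69 in WT (chr1:173455990-173466039) and 1.63 in KO (chr1:173455003-173466039); both end 1 base before the annotated gene end, and both have an adjusted p listed at 0. The WT list set a second peak of 1719 bases just upstream (chr1:173454246-173455964, annotated as 5' UTR), at 0.64, apart from the first by a gap, and the KO list ran across that gap, so the KO peak overlaps both. A 5' UTR peak of 25262 bases (chr1:173394018-173419279) at 0.54 and an intronic one of 100 bases (chr1:173419330-173419429) at 0.46, with adjusted p of 0.0252 and 0.0215, were in the KO list only.

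Nlrp3 had 2 peaks in each list, at matching places. The gene lies on chromosome 11 from 59541568 to 59566956 on the plus strand. The long peak over the first part of the gene stood at 1.43 in WT (chr11:59543151-59555817, annotated as coding exon) and 1.06 in KO (chr11:59542700-59555867, annotated as 5' UTR). The short 3' UTR peak at the gene end, 225 bases wide in WT (chr11:59566725-59566949) and 250 in KO, was level, at 0.74 in WT and 0.73 in KO. Enrichment was therefore lower in KO for the long peak over the first part of the gene and level at the end of the 3' UTR. The difference of the long peak, -0.37, lay near the median of -0.25 over all genes.

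The receptor upstream of NLRP3 also held a level and a lower pair within 1 gene, with a larger gap in the lower one. P2rx7 lies on chromosome 5 from 122643911 to 122691432 on the plus strand and carried a pair of neighbouring 3' UTR peaks in each list. The first (chr5:122681183-122683707) stood at 2.21, or 4.63-fold, in the WT list and at 1.32 in the KO list, with 97.0% of the wider peak shared. The second (chr5:122683983-122691337), reaching the gene end, stood at 1.17 in WT and 1.20 in KO. A coding-exon peak of 150 bases (chr5:122680883-122681032) at 0.63 was in the WT list only. Nek7 (chromosome 1, 138482875 to 138620141, minus strand), in contrast, was weakly marked in both lists: 4 peaks each, none above 0.73 in WT or 0.63 in KO. Its 3' UTR pair nearest the gene end (WT chr1:138483675-138484374) had values of 0.73 and 0.63 and the next pair (WT chr1:138485375-138485649) of 0.42 and 0.54. A 3' UTR peak of 425 bases (chr1:138486375-138486799) at 0.71 was in WT only and one of 100 bases (chr1:138485800-138485899) at 0.32 in KO only. The coding-exon peaks of 11279 bases in WT (0.67) and 17120 bases in KO (0.36) lay in different places and shared no base.

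**Figure D2:**
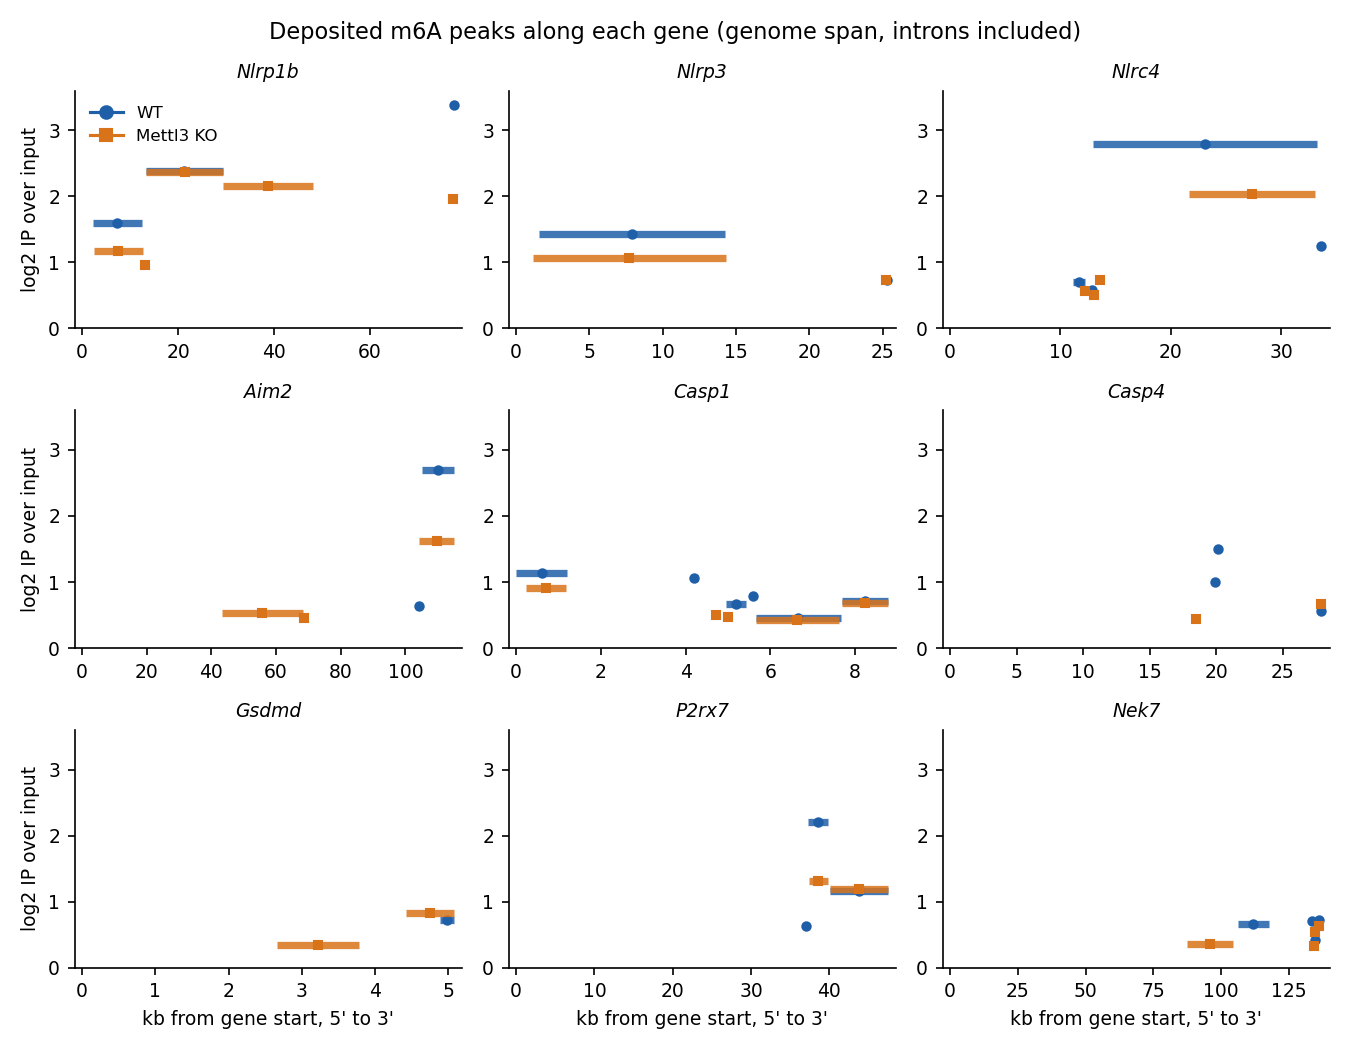
Every deposited m6A peak of the 9 genes, drawn along the gene from its annotated start (horizontal axis, kb, 5' to 3') at its log2 of IP over input (vertical axis), WT in blue with circles and Mettl3 KO in orange with squares; bars are genome spans that include introns, and symbols mark their midpoints. Nlrp1b and P2rx7 each hold a pair at nearly the same height beside a pair with the KO bar clearly below, such as 2.21 against 1.32 in P2rx7. In Nlrp3 the gap of the long pair is smaller, 1.43 against 1.06.

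Casp1 and Casp4 are neighbours on chromosome 9, on the plus strand. Casp1 (5298508 to 5307290) had 6 WT peaks and 5 KO peaks. The WT peak at the gene start (chr9:5298508-5299712) began at the first annotated base and stood at 1.14; the KO peak there (chr9:5298733-5299687) began 225 bases further in and stood at 0.91. The last peak had the same coordinates in both lists (chr9:5306203-5307290) and had a WT value of 0.71 and a KO value of 0.69. The coding-exon peak before it had values of 0.46 and 0.42. Further into the gene a coding-exon pair (WT chr9:5303464-5303938, KO chr9:5303389-5303613) shared 150 bases, at 0.66 and 0.47. Peaks annotated as intron, of 150 bases (chr9:5302639-5302788) at 1.07 and of 100 bases (chr9:5304039-5304138) at 0.78, were in the WT list only, and a coding-exon peak of 125 bases (chr9:5303164-5303288) at 0.50 in the KO list only.

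For Casp4 (5308828 to 5336783), the strongest peaks of the lists lay at different places. Its strongest WT peak, 275 bases annotated as intron (chr9:5328822-5329096), stood at 1.51, and a second intronic peak of 100 bases beside it (chr9:5328697-5328796) was enriched 1.99-fold; the KO list had no peak there. At the gene end the order was the other way, 0.57 in WT (chr9:5336649-5336783) and 0.67 in KO (chr9:5336549-5336783). The KO list also had a 3' UTR peak of 100 bases (chr9:5327222-5327321) at 0.45, with the highest adjusted p of the group (0.0493). The lower strongest value of Casp4 in KO (0.67 against 1.51) therefore sets an intronic peak against a 3' UTR peak and not the same stretch in both lists. All 4 intronic WT peaks of the group belonged to these 2 caspase genes.

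Gsdmd, the pore-forming end of the pathway, was the 1 gene whose strongest peak was higher in KO, and it was among the most weakly marked. On chromosome 15 (75862327 to 75867408, plus strand) the WT list had 1 peak of 200 bases (chr15:75867207-75867406) at 0.73. The KO list had a peak of 658 bases ending at the same base (chr15:75866749-75867406) at 0.83 and a coding-exon peak of 1115 bases (chr15:75864987-75866101) at 0.35. Because of this second, weak peak the mean over its peaks was lower in KO (0.59) than in WT (0.73), so the direction for Gsdmd depends on how its peaks are combined.

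Side by side, the strongest peak was lower in KO for 8 of the 9 genes, against 73.4% of all genes with a peak in both lists. Other ways to combine peaks reuse the strongest peaks by which the group was chosen, so they are no independent check. With the mean over peaks 9 of 9 were lower (77.2% of all genes), and for the strongest WT peak and its KO partner 7 of 8 (78.8%). The differences were -1.06 for Aim2, -1.01 for Nlrp1b, -0.89 for P2rx7, -0.84 for Casp4, -0.75 for Nlrc4, -0.37 for Nlrp3, -0.23 for Casp1, -0.098 for Nek7 and 0.097 for Gsdmd. The first 5 of these lay at 0.5 or more below WT, where 33.5% of all genes lie, and the first 2 at 1 or more, where 9.54% lie. The median over the 9 genes was -0.75, and it was -0.21 (all genes -0.17) for the mean over peaks and -0.15 over 7 genes (all genes -0.054) with peaks of at most 1000 bases. Centred on all genes, Casp1 (0.020) and Nek7 (0.15) changed sign. The sizes of the WT peaks also spread widely: ranked among all WT genes by strongest peak, Gsdmd and Nek7 lay at the 9.96th percentile, Casp1 at 39.0 and Nlrp3 at 53.1, while Nlrp1b lay at 95.2.

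Positions recurred about as often as in the lists at large. Of the WT peaks, 19 of 28 (67.9%, 95% Wilson interval 49.3 to 82.1) overlapped a KO peak of the same gene, against 76.9% of all WT peaks. Of the KO peaks, 20 of 29 (69.0%, 50.8 to 82.7) overlapped a WT peak, against 72.6% of all KO peaks. Intervals cover the counting of peaks only and treat peaks as independent, although several lie in the same gene, so they can be too narrow. The strongest WT and KO peaks of a gene overlapped in 7 of the 9 genes, Nlrp1b and Casp4 being the others. Peaks without a partner had a median of 0.78 in WT (0.59 to 1.51) and 0.46 in KO (0.32 to 2.16), the highest being the intronic Casp4 peak and the long Nlrp1b peak.

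The overlaps gave 21 pairs of peaks, and their values were less one-sided than the strongest peaks. The KO value was lower in 16 pairs, against 70.8% of 32251 pairs over all genes, and lower by 0.5 or more in 6, against 24.5%. Those 6 include all 3 pairs of 1 long Nlrc4 WT peak. The median difference of the 21 pairs was -0.13, beside -0.14 for all genes, and 8 pairs (38.1%) differed by at most 0.1, against 27.1% of all pairs. In 11 pairs with a WT value of at least 1, of which 3 share 1 Nlrc4 WT peak, the median was -0.75 (all genes -0.55), and in 10 pairs below 1 it was -0.014 (all genes -0.026). The WT value is a term of the difference, so this split leans the same way by construction and nothing is read from it. Nlrp1b and P2rx7 held both a pair within 0.1 and a pair lower by 0.5 or more, 2 of 7 genes with several pairs, where 22.4% of all such genes did. When 50% of both peaks had to be shared, 14 pairs were left, and 3 of them were lower by 0.5 or more (21.4%, beside 20.9% of all such pairs). The median difference of these 14 was -0.068, beside -0.12. Counted by pairs, the group thus lay close to the whole list.

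**Figure D3:**
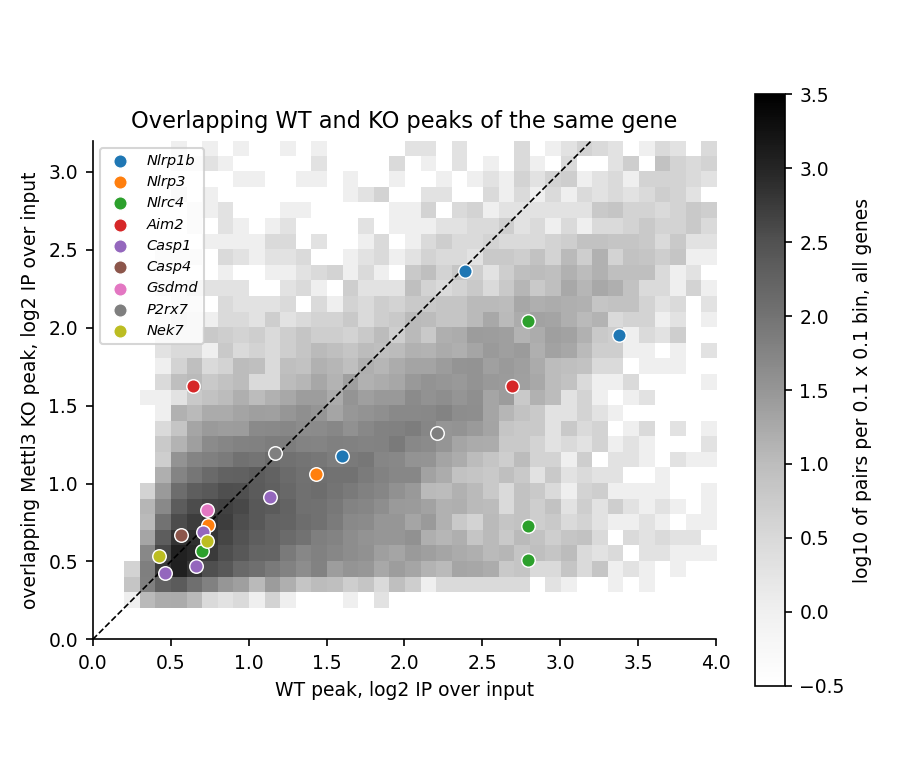
Overlapping WT and KO peaks of the same gene: log2 of IP over input in WT (horizontal axis) and in Mettl3 KO (vertical axis), with the 21 pairs of the 9 genes as coloured points and all 32251 pairs as grey bins on a log10 colour scale (axes end at 4 and 3.2). Of the 21 points 16 lie under the dashed line of equal values and 8 within 0.1 of it; the 3 green points at a WT value of 2.79 are 1 long Nlrc4 peak against 3 KO peaks.

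Peaks at the gene end were compared on their own, a choice made after the values were seen. In 7 genes a WT and a KO peak overlapped and both stopped within 100 bases of the annotated end. In 5 of them, Nlrp3, Casp1, Casp4, Gsdmd and P2rx7, the values differed by at most 0.1, which 31.1% of the 7816 such pairs over all genes did. In Aim2 and Nlrp1b, the KO value was lower by 1.06 and 1.43.

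By region, 14 of the 28 WT peaks and 15 of the 29 KO peaks were annotated as 3' UTR, 50.0% and 51.7%, beside 53.0% and 51.4% of all peaks. Coding exons held 7 WT peaks (25.0%, beside 21.1% of all) and 10 KO peaks (34.5%, beside 25.1%). The 5' UTRs held 3 in each list (10.7% and 10.3%, beside 11.9% in both). Introns held 4 WT peaks (14.3%, beside 5.58% of all) and 1 KO peak (3.45%, beside 4.89%). Widths ran from 100 to 20267 bases in WT and from 100 to 25262 in KO, with 13 peaks over 1000 bases in each list. Wide peaks had a median of 1.17 in each list (all peaks 1.06 in WT and 0.74 in KO), against 0.73 in WT and 0.60 in KO for peaks of at most 1000 bases (all peaks 0.77 and 0.68). The strongest peak of the group, that of Nlrp1b, was only 175 bases wide. The number of peaks per gene moved in no common direction: it was higher in KO for Nlrp1b, Aim2 and Gsdmd, lower for Casp1, Casp4 and P2rx7 and equal for Nlrp3, Nlrc4 and Nek7.

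Other genes of the pathway were counted from 5 lists by role, 81 genes in all. Of these, 60 had a peak in both lists, 3 in WT only (7.44% of all genes with a peak), 2 in KO only (5.03%) and 16 had none under the listed symbol. The strongest peak was lower in KO for 47 of the 60 (78.3%, beside 73.4% of all genes) and higher for 13, with a median of -0.45, so the share lay near that of the whole list. With peaks of at most 1000 bases, 25 of 45 were lower (58.2% of all genes), and the median was -0.070. By the strongest peak of any width, KO was lower by 1 or more in 5 of the 60 genes and higher by 1 or more in none, beside 9.54% and 0.714% of all genes.

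Of 12 further sensors and related genes marked in both lists, KO had the lower value in 11 (91.7%, beside 73.4% of all genes, with a median of -0.53). With peaks of at most 1000 bases it was 4 of 6 (58.2% of all genes; median -0.092). Naip1, a secretion-system receptor that feeds NLRC4, had the strongest WT peak of the list, 2.99 in WT and 1.37 in KO. Nlrp1a, a paralog of Nlrp1b, stood at 1.85 and 1.04. Reads from the Naip genes and from the Nlrp1 genes can be hard to assign, since the copies resemble each other. Dpp8, a protease that holds NLRP1 in check, had a WT value of 2.03 and a difference of -1.02, of the opposite sign with peaks of at most 1000 bases (0.41), and its relative Dpp9 had a WT peak only, at 0.62. Ifi204, a DNA sensor related to Aim2, was the 1 sensor with the higher KO value, 0.85 in WT and 1.18 in KO.

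The channels and receptors that govern ion flux had the lower value in KO in 11 of 12 genes (91.7%, beside 73.4% of all genes; median -0.64). With peaks of at most 1000 bases, 5 of 10 were lower and 5 higher (58.2% of all genes lower). For P2rx4 (-0.44), P2ry6 (-1.11), Kcnn4 (-0.57) and Clic4 (-0.82) the value was the same with and without this limit, since their strongest peaks are short. Kcnn4 was higher in KO for the mean over its peaks (0.16). The strongest WT peak of Clic4 had no KO partner, so its values come from different places. Among the genes higher with short peaks were Trpm2, a calcium-permeable channel (-0.76 by its strongest peak, 0.76 with short peaks), and the proton channel Hvcn1 (-0.62 and 0.64). Kcnk13, a potassium channel, had the strongest WT peak of the ion-flux list, at 3.34 in WT and 2.32 in KO. P2ry6, a nucleotide receptor, stood at 2.52 and 1.41, with a difference near 0 (0.015) for the mean over its peaks. Lrrc8a, a subunit of the volume-regulated anion channel, stood at 2.83 and 0.70; its strongest WT peak had no KO partner, and with peaks of at most 1000 bases the difference was 0.041.

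Of 11 caspases, gasdermins and death mediators, 8 were lower in KO (72.7%, beside 73.4% of all genes) and 3 higher, with a median of -0.19, about as in the whole list. Ripk1, a kinase of the death pathways, had the strongest WT peak, 2.14 in WT and 1.35 in KO, with a difference of 0.023 for peaks of at most 1000 bases. Ninj1, which ruptures the membrane of the dying cell, stood at 1.98 and 1.24. Casp8 and the necroptosis kinase Ripk3 were higher in KO, at 1.91 and 2.07 and at 0.76 and 1.45. The single WT peak of Ripk3 overlapped none of its 3 KO peaks, so its values come from different places. Of 4 released cytokines and related genes with a peak in both lists, 3 were lower in KO, by 0.11 or less (beside 73.4% of all genes; median -0.041). The exception was Il1b, the interleukin-1 beta that caspase-1 matures, at 0.90 in WT and 1.55 in KO; its single WT peak overlapped neither of its 2 KO peaks. Hmgb1, a nuclear protein released on cell death, stood at 1.20 in both. For its strongest WT peak and the KO partner of that peak, however, the difference was -0.63, and with peaks of at most 1000 bases it was -0.41. Il1a had WT peaks only (0.55) and Il18bp, which binds interleukin-18, had KO peaks only (1.43).

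Among regulators of NLRP3 assembly and guanylate-binding proteins, 14 of 21 genes were lower in KO (66.7%, beside 73.4% of all genes) and 7 higher (median -0.45). With peaks of at most 1000 bases, 8 were lower and 8 higher (58.2% of all genes lower). Tlr4, the LPS receptor at the cell surface, had the strongest WT peak, with a difference of -0.87 that was 0.094 with peaks of at most 1000 bases. Gbp3 had WT peaks only (0.85) and the GTPase Rhoa a KO peak only (0.33). Hdac6, a deacetylase that carries NLRP3 to its assembly site, was higher in KO (1.66 and 2.38), but lower for the mean over its peaks (-0.46).

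**Figure D4:**
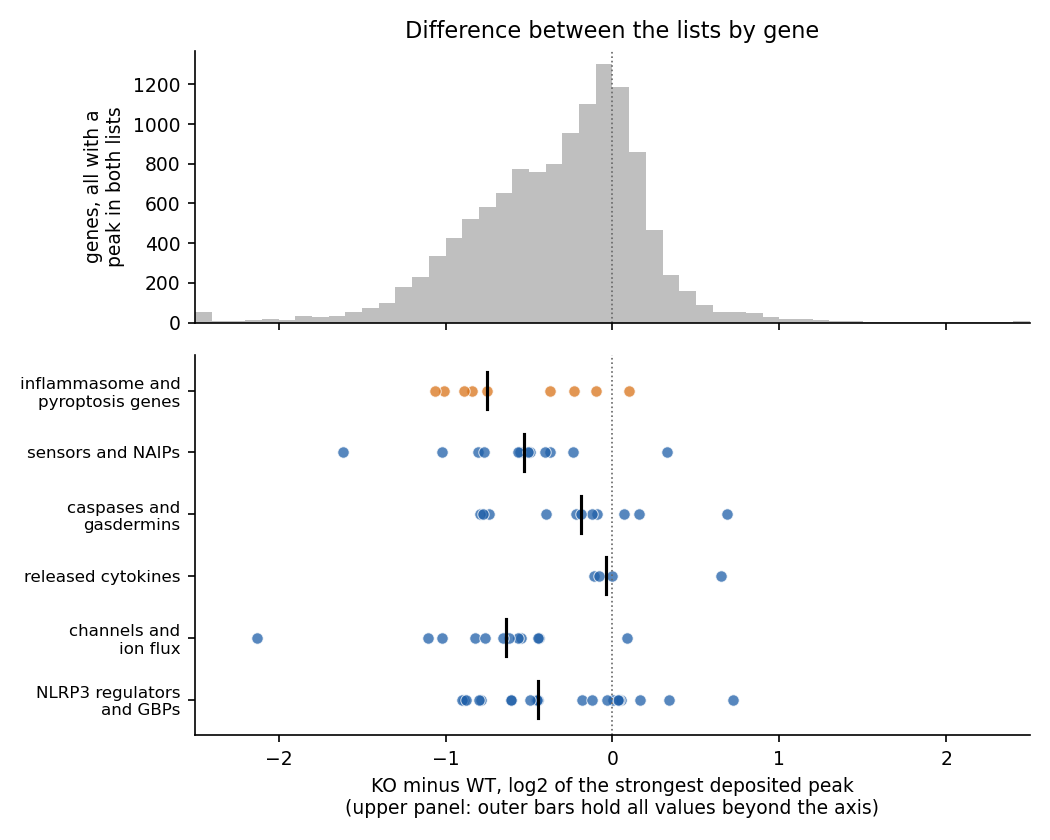
Difference between the strongest deposited peaks, KO minus WT on the log2 scale (horizontal axis), as a histogram of all 12323 genes with a peak in both lists (upper panel, number of genes) and as points for single genes by list (lower panel; vertical bars are medians, and there is no replicate error). The inflammasome and pyroptosis genes have a median of -0.75, the ion-flux list -0.64 and the released cytokines -0.041.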

How the data were processed

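The study has 12 libraries, IP and input of 3 replicates for either genotype. The authors deposited 1 peak list for each genotype; per the file headers, a peak has a length, a log2 enrichment (IP over input), a raw and an adjusted p-value, a region and a gene. No per-library values were used, so depth is unknown. Per the submitters' processing notes, fastp, FastQC, HISAT2, HOMER, StringTie and edgeR were used, without stated roles. Peak caller, build and pooling: not given in the sources used here.

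Start positions were counted from 0 (5098 WT peaks begin at their gene's start after adding 1), so 1-based positions are given, and a width is end minus deposited start, 1 less than the deposited length. A gene's value is its strongest peak; overlap means at least 1 base of the same gene and strand. Members and lists were chosen with earlier results of these data known. All members are named with their peaks; of the wider lists, genes with a peak in 1 list only, those differing by 1 or more and the strongest of each, and a few others chosen after their values were seen. Software was SciPy 1.17.1, numpy 2.4.6 and pandas 2.3.3 under Python 3.11.15, with matplotlib 3.10.9 for figures, and the steps were tested on simulated data. A marker that was looked up is not reported here.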

Additional observations from a re-analysis of the deposited data

How the results depend on the processing

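No value here has a replicate, so an alternative can only be set beside it. No paired analysis was possible because each genotype is 1 list with no value per library, and for the same reason no library could be left out; exon blocks were not run, as the lists give spans only. With an adjusted p of at most 0.001 the KO list kept 17 peaks of these genes and the median difference was -0.56 (all genes -0.26). At 4-fold or more, 5 WT and 3 KO peaks remained, and 40.0% of WT peaks overlapped. Only 2 genes could be compared there, and both were lower (83.5% of all genes), with a median of -0.88 (all genes -0.65). With at most 1000 bases there were 15 WT and 16 KO peaks, a median of -0.15 (all genes -0.054) and an overlap of 46.7%. The median was -0.21 with the mean over peaks (all genes -0.17), -0.56 for the strongest WT peak and its KO partner (all genes -0.33) and -0.51 when centred. Gsdmd turned to -0.14 with the mean, and Casp1 (0.020) and Nek7 (0.15) turned when centred. The other 40 of 43 single-gene values kept their direction. Many of them are the unchanged main value, because the same peaks passed the limit, and centring subtracts 1 constant. The tally is therefore no independent support. With equal numbers of peaks in both lists the KO count fell from 29 to 21 beside 28 in WT, so the order of the lists turned. Asking for 50% of both peaks left 14 of 28 WT peaks overlapping (50.0%), and ignoring strand left 19. The overlap of all WT peaks was not computed under these alternatives, so the lower shares cannot be called particular to these genes.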

Other observations

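The lists' own pathway column names 133 genes of NOD-like receptor signalling, 9 of them the genes described above; this set was chosen after the data were seen. Without those, 120 genes had a peak in both lists, 80 lower in KO (66.7%, beside 73.4% of all genes) and 40 higher, with a median difference of -0.17 beside -0.25 for all genes. Nod2, a sensor of bacterial cell-wall fragments, had a WT value of 3.61 and a difference of -1.10. The kinase Jak1 had values of 2.59 and 1.32. Antxr1, an anthrax toxin receptor, had the largest drop, from 4.25 to 1.11, but its strongest WT peak is intronic and has no KO partner, and with peaks of at most 1000 bases the difference was 0.10. Vdac3, a channel of the outer mitochondrial membrane, was higher in KO, at 0.85 and 1.26, with a difference of -0.027 for peaks of at most 1000 bases. Ccl12 (0.73) and Il6 (0.99) had WT peaks only.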
